A study of Mus musculus with 8 samples.

Results

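Spermatocytes of H2A.L.2-less and wild-type (WT) mice were compared by the positions of their nucleosomes on chromosomes 1 to 19. The members are every position on these autosomes in the nucleosome lists of both genotypes, 4764344 in H2A.L.2-less and 5176848 in WT spermatocytes. They make up 9941192 of the 36905351 autosomal positions in the 8 lists of the series. Testis cell fractions enriched for spermatocytes were digested and the nucleosomal particles separated on a sucrose gradient, with 1 library from animals lacking the histone variant H2A.L.2 and 1 from WT animals. Round spermatids of both genotypes, the haploid cells that follow meiosis, were set beside them, where the H2A.L.2-less list has 4700815 and the WT list 5322422 autosomal positions, again from 1 library each. The strain, the age and number of animals and the way the H2A.L.2-less line was made are not given in the labels. The lists hold DNA positions only, so the cell type could not be checked against marker genes.

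A nucleosome is a stretch of DNA wound around an octamer of histones, and nucleosomes follow each other along the chromosome with short linkers between them. Micrococcal nuclease (MNase) digests the linkers and leaves the wrapped DNA, which is then sequenced. Sequences pile up over each place where a nucleosome sat in many cells. H2A.L.2 is a testis-specific variant of histone H2A, known for accumulating in spermatids at the time when histones give way to transition proteins and protamines, which is after the stage described here. Spermatocytes are in meiosis and still package their DNA with nucleosomes, including several testis variants of the core histones.

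Each deposited position is 140 bp wide and has a summit, a summit value, which is the height of the fragment coverage there, and a fuzziness score, the authors' own measure of how widely the fragments scatter around it. Between 207000000 and 753000000 reads were sequenced per sample in the series, and the depth of each single library is not known. The median summit value was 224 in H2A.L.2-less and 232 in WT spermatocytes, and the first percentile was 172 in both lists. Relative to the median of its own list, the 10th percentile lay at 0.786 in H2A.L.2-less and 0.759 in WT spermatocytes, and the ninetieth at 1.41 in both. Heights are used below only relative to the own list. With 1 library per group, no difference between genotypes has a replicate check, and no test was possible. A difference between the genotypes and a difference between the libraries in depth or in MNase digestion cannot be told apart. Intervals cover counting error only, and an SD over the 19 autosomes shows how values vary from chromosome to chromosome, not between animals.

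The question of the comparison was how far the nucleosome map of spermatocytes differs in animals lacking a histone variant of later stages. Between 51.5% and 56.0% of the nucleosome positions were found again in the other genotype. A summit was called matched when the other list had one within 40 bp, and because summits of a list are at least 100 bp apart, each match joins 1 summit of each list. There were 2666949 such pairs, which is 56.0% of the H2A.L.2-less summits (SD 0.908 percentage points over autosomes, 95% Wilson interval 55.9% to 56.0%) and 51.5% of the WT summits (SD 0.588, interval 51.5% to 51.6%). The other 2097395 H2A.L.2-less and 2509899 WT summits had no such counterpart. When the other list was moved by 5000 bp, which keeps its local density but breaks the register, 21.5% of the H2A.L.2-less and 19.8% of the WT summits still met a summit. The matched share was thus 2.61 times this background in both directions.

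The autosomes resembled each other closely. The matched share of H2A.L.2-less summits was highest on chromosome 11 (57.9%) and chromosome 9 (57.4%), and lowest on chromosome 3 (54.4%) and chromosome 18 (54.9%). Chromosome 11 was also the autosome with the densest summits, with 4.88 other summits within 1000 bp in the H2A.L.2-less and 5.45 in the WT list. Chromosome 3 was the sparsest, with 3.82 in the H2A.L.2-less and 4.04 in the WT list.

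In round spermatids the genotypes were further apart. There, 49.3% of the H2A.L.2-less summits (SD 1.32 points) and 43.6% of the WT summits (SD 0.887 points) were matched, 2.36 times the moved background in both directions. In spermatocytes the lowest single autosome had 54.4% of its H2A.L.2-less summits matched, and in round spermatids the highest had 52.4%, so these ranges do not overlap. The spermatocyte genotypes were about as close to each other as the WT library was to the next stage of its own genotype. Of the WT round spermatid summits, 53.9% had a WT spermatocyte summit within 40 bp (2.47 times the moved background), and of the H2A.L.2-less round spermatid summits 44.6% had an H2A.L.2-less spermatocyte summit (2.38 times). The lists of all these pairs differ in length, and a longer list offers more summits to meet.

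Tall summits were found again far more often than low ones. With each list divided into 10 equal classes (deciles) by summit value, ties in random order, the matched share climbed without a step back from 39.7% in the lowest decile of H2A.L.2-less summits, through 53.0% in the fifth, to 78.4% in the highest. In WT the same classes had 34.1%, 48.2% and 76.0%. The background after the 5000 bp move hardly changed, at 20.8% in the lowest and 21.8% in the highest decile of H2A.L.2-less and 18.7% and 20.8% in those of WT summits. Matched summits had a median height of 1.05 times the list median in H2A.L.2-less and 1.07 times in WT spermatocytes, and unmatched summits 0.929 times in H2A.L.2-less and 0.931 times in WT.

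Sharp summits were found again more often than fuzzy ones. In the second decile by fuzziness, 62.9% of H2A.L.2-less and 58.8% of WT summits were matched, the highest share of any fuzziness class in both lists. In the fuzziest decile it was 42.0% in H2A.L.2-less and 37.2% in WT. Height and fuzziness were linked, and tall summits were the sharper ones: the median fuzziness was 50.9 in the highest and 54.6 in the lowest decile by height of H2A.L.2-less summits, and 51.1 and 54.8 in WT. When each list was divided into quartile groups by both measures, fuzziness made little difference among low summits. In the lowest quartile group by height, the matched share of H2A.L.2-less summits lay between 40.1% and 43.8% and that of WT summits between 34.7% and 38.2% over the 4 quartile groups of fuzziness. In the highest quartile group by height it was 80.2% for the sharpest and 57.6% for the fuzziest quartile group of H2A.L.2-less summits, and 76.9% and 54.8% in WT.

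**Figure D1:**
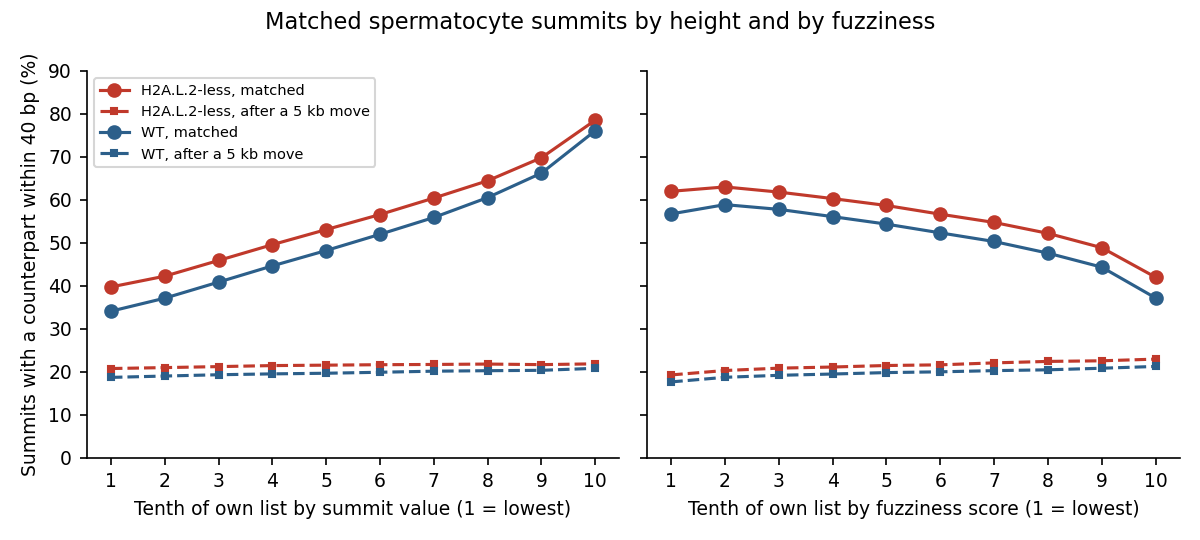
Share of spermatocyte summits (y axis, percent) with a counterpart in the other genotype within 40 bp, by decile of the own list in summit value (left) and in fuzziness score (right), for H2A.L.2-less and WT, with dashed lines for the share after moving the other list by 5000 bp. The share reaches 78.4% in the highest decile of H2A.L.2-less and 76.0% of WT summits, while the dashed lines run between 20.8% and 21.8% (H2A.L.2-less) and between 18.7% and 20.8% (WT) on the left, and between 19.3% and 22.9% (H2A.L.2-less) and between 17.6% and 21.2% (WT) on the right.

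Most matched summits lay very close together. The mean absolute offset of the pairs was 17.5 bp (SD 0.0850 over autosomes), against 22.1 bp for the summits that met after the 5000 bp move. Of the pairs, 17.2% had the same coordinate, 48.1% were at most 10 bp apart and 70.1% at most 20 bp, on lists in which 96.4% of H2A.L.2-less and 96.6% of WT summits lie on a 10 bp grid. After the move, 10.4% had the same coordinate and 32.8% lay within 10 bp. The shift had no side: the H2A.L.2-less summit was to the right in 41.2% and to the left in 41.6% of pairs, and the mean signed offset (H2A.L.2-less minus WT) was -0.0888 bp.

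Offsets shrank as nucleosomes became taller and sharper in both lists. In the lowest decile of pairs by their mean relative height, the mean absolute offset was 18.6 bp and 14.2% shared a coordinate. In the highest decile the offset was 15.3 bp and 21.7% shared a coordinate. By mean fuzziness, the sharpest decile of pairs had an offset of 14.3 bp and the fuzziest 19.4 bp. In round spermatids the offset between genotypes was 17.8 bp, and from WT spermatocytes to WT round spermatids 17.9 bp. The match limit caps every offset, and spermatocyte summits that met after the move averaged 22.1 bp. Mean offsets could therefore differ little between these comparisons, and their closeness cannot be weighed against the numbers of pairs.

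**Figure D2:**
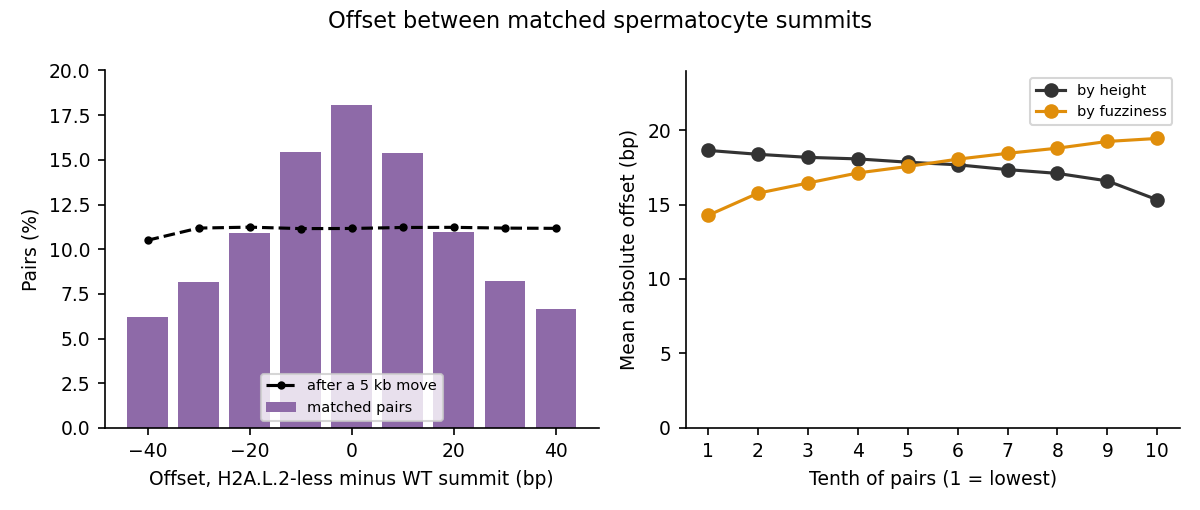
Left, share of matched pairs (percent) by the offset of the H2A.L.2-less from the WT summit in 10 bp bins, with the dashed line for pairs met after a 5000 bp move, and right, mean absolute offset (bp) by decile of pairs in mean relative height or mean fuzziness. The true pairs peak at 0 bp with 18.1% and fall to 6.21% and 6.65% at the edges, while the moved pairs are flat between 10.5% and 11.2%.

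Summits without a counterpart were often only a little further away. Of the unmatched H2A.L.2-less summits, 32.7% had a WT summit 41 to 73 bp away, against 17.3% after the move. Of the unmatched WT summits, 27.7% had an H2A.L.2-less summit at that distance, against 15.7% after the move. At the other end, no summit of the other list lay within 500 bp of 7.58% of unmatched H2A.L.2-less and 9.36% of unmatched WT summits, which is 3.34% and 4.54% of the whole lists. A shifted nucleosome and a pair of different nucleosomes cannot be told apart from the lists.

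The height of a nucleosome in one genotype told only part of its height in the other. Across the 2666949 pairs, Spearman's rho of the relative heights was 0.333 and Pearson's r of their logarithms 0.486, a description in which each point is a pair and all pairs share the same 2 libraries. The log2 ratio of relative heights (H2A.L.2-less over WT) had a median of -0.01 and an SD of 0.39, and the middle 50% of pairs lay between -0.27 and 0.25. Of the pairs, 0.963% were more than 2-fold apart, that is 11514 pairs higher and 14164 pairs lower in H2A.L.2-less spermatocytes. The narrow range of heights in each list leaves little room for such differences. Without the lowest and highest percentile, relative heights ran from 0.768 to 1.95 in H2A.L.2-less and 0.741 to 1.97 in WT spermatocytes. The low share is therefore no measure of how alike the heights were. In round spermatids the share beyond 2-fold was 1.63%, and between WT spermatocytes and WT round spermatids 1.29%. Each list leaves out sites below its calling floor, which can limit the ratios of low summits, though this was not tested. In the 4 lowest deciles of pairs by height, between 0.0900% and 0.140% were beyond 2-fold, and in the seventh decile 2.35%.

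Fuzziness hardly differed between the genotypes. The median score was 53.1 in H2A.L.2-less and 53.3 in WT spermatocytes, and the H2A.L.2-less median was the lower one on 19 of 19 autosomes, with differences (H2A.L.2-less minus WT) between -0.295 and -0.0676. The order was not the same all along the genome. In the decile of 1 Mb windows with the fewest WT round spermatid positions, H2A.L.2-less had 52.13 and WT 51.97. In the decile with the most, H2A.L.2-less had 53.94 and WT 54.37. At matched pairs the scores as deposited differed by a median of -0.106 (H2A.L.2-less minus WT, autosomal SD 0.0662), in a spread of single pairs with an SD of 4.50. After each score was set against the median of its own list the difference was 0.106, so its sign depends on whether the lists are centred. A place that was sharp in one genotype tended to be sharp in the other, with a Spearman's rho of 0.457 across pairs, above the 0.333 found for height. In round spermatids the same values were 0.376 for fuzziness and 0.227 for height.

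The repeat of nucleosomes along the chromosome was the stronger one in H2A.L.2-less spermatocytes. Distances between all summits of a list up to 1000 bp were counted in 10 bp bins and divided by the mean from 800 to 1000 bp. In both genotypes they peaked at 180, 370, 560 and 750 bp. The first peak was 1.75 and 1.61 times the mean in H2A.L.2-less and WT spermatocytes, the second 1.46 and 1.37 times, the third 1.38 and 1.30 times, and the fourth 1.30 and 1.24 times. Regularity, the second peak over the trough before it after smoothing over 5 bins, was 1.89 in H2A.L.2-less (SD 0.0243 over autosomes) and 1.69 in WT spermatocytes (SD 0.0241). The H2A.L.2-less value was higher on 19 of 19 autosomes, and the lowest H2A.L.2-less autosome, at 1.86, lay above the highest WT autosome, at 1.74.

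Regularity was higher around nucleosomes that both genotypes shared. Around matched summits it was 2.32 in H2A.L.2-less and 2.12 in WT spermatocytes, and around unmatched summits 1.46 and 1.34. Around the sharpest quartile group of summits it was 3.17 in H2A.L.2-less and 2.51 in WT spermatocytes, and around the fuzziest quartile group 1.19 and 1.15. Around the tallest quartile group it was 2.33 and 2.07, and around the lowest quartile group 1.61 and 1.43. In each of these classes the H2A.L.2-less value was the higher one, with the widest gap at the sharpest summits.

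Taken over all summits, the lists of the 2 genotypes were in register. The density of H2A.L.2-less summits around WT summits was 3.98 times the mean at distance 0, and it fell to 0.634 at 90 bp before it reached 1.65 at 180 bp. The regularity of this curve was 1.78 (SD 0.0278), between the curves within H2A.L.2-less and within WT spermatocytes. In round spermatids the corresponding curve stood at 3.48 times the mean at the WT summit and had a regularity of 1.99.

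**Figure D3:**
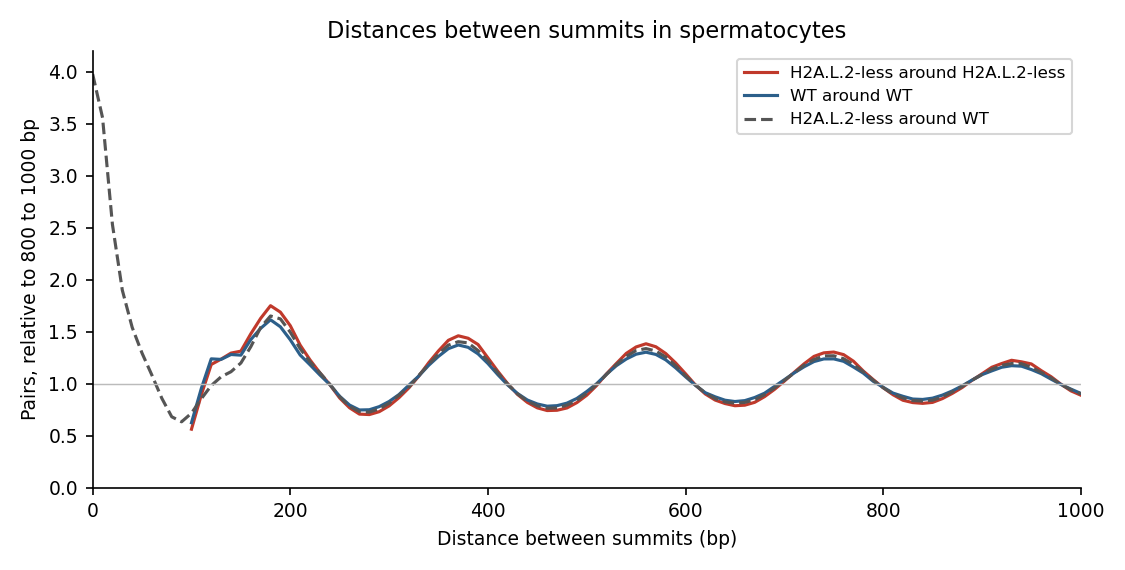
Number of summit pairs by distance (x axis, bp), relative to the mean from 800 to 1000 bp, for H2A.L.2-less summits around each other, WT summits around each other, and H2A.L.2-less around WT summits (dashed). The first peak at 180 bp stands at 1.75 in H2A.L.2-less and 1.61 in WT, and the dashed curve starts at 3.98 and dips to 0.634 at 90 bp.

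Nucleosomes were called less densely in H2A.L.2-less spermatocytes. A summit had on average 4.35 other summits of its list within 1000 bp in H2A.L.2-less (SD 0.258 over autosomes) and 4.77 in WT spermatocytes (SD 0.343), and the H2A.L.2-less mean was lower on 19 of 19 autosomes. Places with at most 3 such neighbours held 8.62% (0 to 1) and 27.5% (2 to 3) of the H2A.L.2-less list, against 6.998% and 23.1% of the WT list. Places with 8 to 9 neighbours held 6.63% of the H2A.L.2-less and 10.3% of the WT list. Neighbouring summits were 150 to 230 bp apart in 28.5% of gaps in H2A.L.2-less and 29.6% in WT spermatocytes, and closer than 150 bp in 11.7% and 13.4%. The shorter H2A.L.2-less list goes with these values: with equal numbers of positions in both lists the mean number of neighbours was 4.35 in H2A.L.2-less and 4.45 in WT spermatocytes.

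In dense surroundings the matched share was higher, and so was its background. Among H2A.L.2-less summits with at most 1 neighbour, 50.6% were matched, 3.30 times the moved background, and among those with 8 to 9 neighbours 59.7%, but only 2.15 times the background. In WT, 49.0% were matched with at most 1 neighbour (3.53 times) and 53.5% with 8 to 9 neighbours (2.15 times). Relative to the background, the matched share was thus higher where summits of the own list were sparse.

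Long stretches of evenly spaced nucleosomes were a minority in both genotypes. An array was defined as at least 4 summits in a row whose neighbouring gaps all lay between 150 and 230 bp. Such arrays held 9.83% of H2A.L.2-less (SD 1.28 over autosomes) and 10.8% of WT summits (SD 1.64), in 100596 and 119008 arrays with a mean length of 4.66 and 4.70 summits. Arrays of at least 10 summits numbered 627 in H2A.L.2-less and 915 in WT spermatocytes. The longest H2A.L.2-less array had 18 summits, on chromosome 2 from 156841771 to 156844871 (mm9, as the files give coordinates), with a mean gap of 182 bp. The longest WT array had 21 summits, on chromosome 7 from 151828741 to 151832491, with a mean gap of 188 bp. Which genes lie there was not analysed here.

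Regularity and array share pointed to opposite genotypes, and the number of positions moved with the second. Array share was lower in H2A.L.2-less spermatocytes by 0.962 percentage points with all positions (SD of the difference over autosomes 0.433). With equal numbers of positions it was 9.83% in H2A.L.2-less and 9.61% in WT spermatocytes. That is higher by 0.227 points, less than the SD of this difference over autosomes, 0.332. At the same local density the H2A.L.2-less list held more arrays. Among summits with 4 to 5 neighbours, 7.55% of H2A.L.2-less and 6.73% of WT summits were in arrays. With 6 to 7 neighbours the shares were 19.9% and 17.9%, and with 8 to 9 neighbours 34.5% and 31.7%. Regularity kept its order with equal numbers, at 1.89 in H2A.L.2-less and 1.75 in WT spermatocytes.

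**Figure D4:**
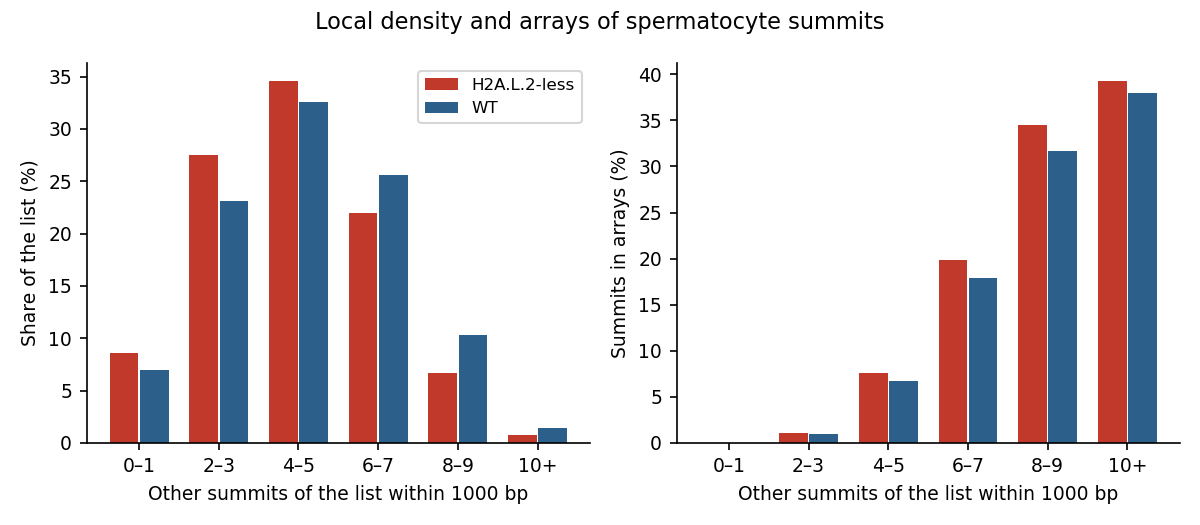
Left, share of each spermatocyte list (percent) by the number of other summits of the list within 1000 bp, and right, share of the summits of each class (percent) that lie in arrays, with H2A.L.2-less bars left of WT bars. H2A.L.2-less spermatocytes have more of their summits in sparse classes (27.5% against 23.1% with 2 to 3 neighbours) but a higher array share within a class (19.9% against 17.9% with 6 to 7 neighbours).

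Summits in arrays were found again more often than others. In H2A.L.2-less spermatocytes 65.8% of array summits and 54.9% of the rest were matched, and in WT 60.5% and 50.4%. The share rose with the length of the run. Of single summits, with no neighbour at 150 to 230 bp, 51.9% were matched in H2A.L.2-less and 47.4% in WT spermatocytes, and of summits in runs of at least 10 the shares were 73.3% and 66.7%. Relative to the background after the move, however, the run classes differed little, between 2.40 and 2.70 times in H2A.L.2-less and between 2.48 and 2.70 times in WT spermatocytes.

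Most arrays were matched in part. At least 50% of the summits were matched in 83.3% of H2A.L.2-less and 76.3% of WT arrays, every summit in 17.0% and 13.0%, and none in 1.77% and 3.19%. No background was computed for whole arrays. Of the matched array summits, 37.8% in H2A.L.2-less and 34.4% in WT spermatocytes had a nearest counterpart that was also in an array, against 9.40% and 8.23% of matched summits outside arrays. In round spermatids, every summit was matched in 13.9% of H2A.L.2-less and 6.35% of WT arrays.

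Summits present in only 1 genotype of spermatocytes were next looked for in the round spermatid libraries, which took no part in their choice. Both sets recurred there above the moved background, in the other genotype as well as in their own. Of the 2097395 summits found only in H2A.L.2-less spermatocytes, 34.4% lay within 40 bp of an H2A.L.2-less round spermatid summit (SD 0.677 points over autosomes), which is 1.88 times the background after the move, and 41.3% of a WT round spermatid summit (SD 0.578), 1.90 times. Of the 2509899 summits found only in WT spermatocytes, 33.4% were met in H2A.L.2-less round spermatids (SD 0.944, 1.83 times) and 44.6% in WT round spermatids (SD 0.371, 1.98 times). The share was higher in WT round spermatids for both sets, and their list is the longer one. With lists cut to about equal numbers of positions the share in WT round spermatids was still the higher one. The difference was then -2.97 points for H2A.L.2-less-only summits (H2A.L.2-less minus WT round spermatids). For WT-only summits it was 7.37 points (WT minus H2A.L.2-less round spermatids). Summits shared by both spermatocyte lists recurred more often, 51.6% of them in the H2A.L.2-less and 65.4% in the WT round spermatid list (H2A.L.2-less coordinates), 2.77 and 2.92 times the background.

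Taking the background into account, the recurrence in H2A.L.2-less over that in WT round spermatids was 0.989 for summits found only in H2A.L.2-less and 0.923 for those found only in WT spermatocytes. Both values lie below 1, and they differ by a factor of 1.07. Over all heights together, H2A.L.2-less-only summits thus recurred in their own genotype slightly better than WT-only summits did in that genotype. For summits shared by both spermatocyte lists the value was 0.947 in H2A.L.2-less and 0.943 in WT coordinates. Set against these shared summits, each set leaned slightly towards its own genotype over all heights together, but not at every height. Height made a larger difference than genotype. In the lowest decile by height of H2A.L.2-less-only summits, recurrence was 1.55 times the background in round spermatids that were H2A.L.2-less and 1.47 times in those that were WT. In the highest decile it was 2.64 and 2.76 times. In the highest decile of WT-only summits the H2A.L.2-less round spermatids gave 2.62 times and the WT ones 2.71 times. Shared summits of the highest decile (H2A.L.2-less coordinates) had 3.51 and 3.58 times, so there the H2A.L.2-less-only summits leaned towards WT by comparison. In the lowest decile of the WT list, WT-only summits had 1.48 and 1.54 times and shared summits 2.21 and 2.37 times. There the WT-only summits leaned towards H2A.L.2-less by comparison. Summits that lacked a counterpart within 40 bp in the other spermatocyte library were therefore often called in a library of that other genotype 1 stage later.

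The genotypes also differed in how many positions each stretch of the genome held. Positions were counted per 1 Mb in the 2407 windows where each list had 500 or more, and the log2 ratio (H2A.L.2-less over WT) was centred on the ratio of the list totals, -0.12. The centred ratio had an SD of 0.12 over windows, and 72.4% of windows lay within 1.1-fold of it. Of the windows, 0.457%, 11 in all, lay more than 0.32 above or below 0, the limit used here for a called window: 3 windows (0.125%) were higher and 8 (0.332%) lower in H2A.L.2-less spermatocytes, on 6 autosomes. This count depends on the settings. It was 3.86% without centring (2 windows higher and 91 lower), 6.48% when each list was limited to summits no lower than its median (71 higher and 79 lower), 1.67% when limited to those no lower than the lower quartile (16 higher and 24 lower), and 4.60% in windows of 100 kb (509 higher and 592 lower). In round spermatids 41.1% of the 1 Mb windows were past this limit and the SD was 0.32.

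Windows with few nucleosomes had relatively more positions in H2A.L.2-less spermatocytes. Windows were ranked by the number of WT round spermatid positions, a library that takes no part in the spermatocyte ratio. The decile of windows with the fewest had a median ratio of 0.17, with quartiles of 0.14 and 0.20, and the decile with the most had -0.11, with quartiles of -0.16 and -0.06. The medians fell at every step between. In the poorest decile a window held a median of 1162 H2A.L.2-less and 1120 WT spermatocyte positions, and in the richest 2767.5 and 3240.5. With equal numbers of positions in both lists the medians were 0.19 and -0.12. The richest windows also had the larger genotype gap in regularity, with 1.964 in H2A.L.2-less and 1.73 in WT spermatocytes, against 1.76 and 1.62 in the poorest. Array summits made up 16.5% of H2A.L.2-less and 18.8% of WT summits in the richest windows (medians), and 4.32% and 3.98% in the poorest. The matched share of H2A.L.2-less summits was 58.5% in the richest and 52.5% in the poorest windows, and that of WT summits ran the other way, with 49.98% and 54.3%. Both shares count the same pairs, so within a window their ratio follows from the numbers of positions and is no separate result.

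The windows ranked alike in round spermatids. The ratio of spermatocytes and that of round spermatids, which come from different libraries, had a Pearson's r of 0.890 and a Spearman's rho of 0.911 across the 2407 windows. Within single autosomes r was between 0.810 and 0.940. Windows are not replicates, and both ratios share the number of positions that a window can hold. The 11 called spermatocyte windows all had the same sign in round spermatids. The share of all 2407 windows with the same sign was not counted, so this adds nothing to the correlation.

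**Figure D5:**
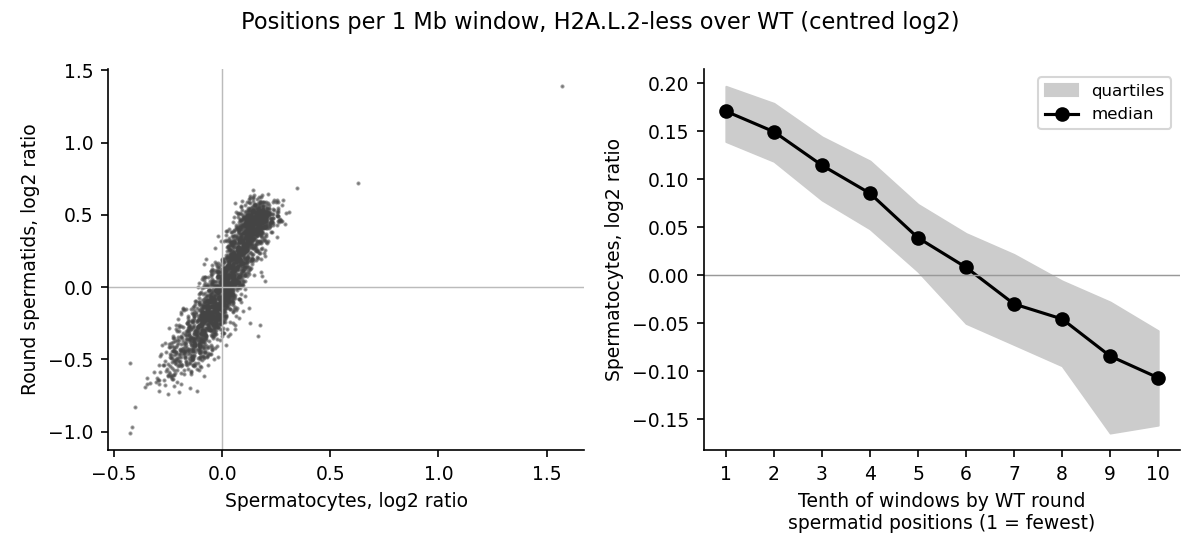
Centred log2 ratio of positions per 1 Mb window (H2A.L.2-less over WT): left, spermatocytes (x axis) against round spermatids (y axis), 1 point per window, and right, spermatocyte median and quartiles by decile of windows ranked by WT round spermatid positions. The medians fall from 0.17 in the poorest to -0.11 in the richest windows, and a single window stands apart at 1.57 on the x axis.

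The windows furthest from the rest were the 3 highest and the 3 lowest ratios. The highest stood on chromosome 7, from 33000001 to 34000000 (mm9), which held 1631 H2A.L.2-less and 596 WT spermatocyte summits, a centred log2 ratio of 1.57. The window before it, from 32000001 to 33000000, had 1804 and 1268 positions (0.63). In steps of 100 kb, each step from 32500001 to 34000000 held 135 to 184 H2A.L.2-less and 16 to 106 WT positions, and in round spermatids 202 to 239 H2A.L.2-less and 37 to 146 WT positions. Whether the DNA sequence and copy number of this stretch are the same in the mice of both genotypes was not tested. In the higher of these 1 Mb windows 19.4% of H2A.L.2-less and 53.2% of WT spermatocyte summits were matched. Both shares count the same pairs, so their ratio restates the ratio of positions there. The third highest ratio, 0.35, also lay on chromosome 7, from 60000001 to 61000000, which held 1370 H2A.L.2-less and 1171 WT spermatocyte summits.

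The 3 lowest windows held many positions in the WT list and a middling number in the H2A.L.2-less list. On chromosome 10 from 80000001 to 81000000 1839 H2A.L.2-less faced 2684 WT summits (-0.43), and from 79000001 to 80000000 1867 faced 2712 (-0.42). On chromosome 19 from 5000001 to 6000000 1948 faced 2839 (-0.42). In these windows 51.9% to 52.7% of H2A.L.2-less and 35.5% to 36.2% of WT summits were matched. Both shares count the same pairs, so their ratio restates the ratio of positions in these windows. Arrays held 6.58%, 9.37% and 5.75% of their H2A.L.2-less summits and 13.5%, 12.6% and 12.0% of their WT summits. Median fuzziness was between 53.5 and 53.6 in H2A.L.2-less and between 54.1 and 54.2 in WT spermatocytes, a wider gap than between the whole lists. This was not particular to these windows. In the decile of windows with the most WT round spermatid positions it was 53.94 in H2A.L.2-less and 54.37 in WT spermatocytes. Both chromosome 10 windows were lower in H2A.L.2-less round spermatids too, with centred ratios of -1.01 and -0.97.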

How the data were processed

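MNase-protected DNA of testis cells was sequenced by the authors in 3 runs per sample, merged after alignment, per the series description. The submitters' processing notes list mm9 as the build, with deepTools 2.2.4 and Bowtie2 2.2.9 as tools. Settings of the software that called positions, and whether duplicates were removed, are not given in the sources used here. Summit values, as deposited, are a coverage signal in steps of 4 whose scaling to depth is not stated. The fuzziness score was used as deposited and was not recomputed. The deposited summit coordinate (mm9) was used as given.

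Chromosomes X and Y and mitochondrial DNA were left out. Summits were matched within 40 bp, background shares came from moving the other list by 5000 bp, and deciles were formed with ties in a seeded random order. Shares have 95% Wilson intervals, with half-widths of at most 0.0452 points for whole lists. Regularity was the largest smoothed value at 330 to 450 bp divided by the smallest at 230 to 330 bp. Groups came from the sample titles, with 1 library each, so no test was made. Named autosomes are the 2 highest and 2 lowest matched shares, and named windows the 3 highest and 3 lowest ratios with at least 500 positions in both lists. The 100 kb steps on chromosome 7 and the longest arrays were chosen after their values were seen. Members, measures and limits were chosen with earlier results of these data known. Alternatives were other match distances, summit value limits, equal numbers of positions, removal of the highest 0.1% of positions, and other window sizes, gap limits and radii. The gene annotation at hand was of another build, so no gene was placed and no sequence is shown. Python 3.11.15 was used with numpy 2.4.6, pandas 2.3.3 and matplotlib 3.10.9, and the scripts were checked beforehand on simulated lists with known matches and spacing.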

Additional observations from a re-analysis of the deposited data

Results flagged for a closer look

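At matched pairs, the deposited fuzziness scores differed in opposite directions at the 2 stages. The median difference (H2A.L.2-less minus WT) was -0.106 in spermatocytes and 0.0161 in round spermatids. Each stage has 1 library per genotype, the difference between the stages was not tested, and the autosomal SDs were 0.0662 and 0.129. After each list was centred on its own median, both differences were positive, at 0.106 and 0.528.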

How the results depend on the processing

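Values follow the order matched share of H2A.L.2-less summits, matched share of WT summits, mean absolute offset and share of pairs beyond 2-fold in relative height. Within 20 bp they were 39.2%, 36.1%, 10.4 bp and 0.948%, and within 73 bp 70.4%, 65.0% and 25.2 bp, with the 2-fold share within its interval. At or above the median summit value they were 45.5%, 42.1%, 16.7 bp and 0.236%, at or above the lower quartile 51.1%, 48.3%, 17.2 bp and 0.496%, and with equal numbers 53.0% in both directions and 0.854%. Without the highest 0.1% of positions the shares were 55.9% and 51.5%. The recurrence of H2A.L.2-less-only summits (H2A.L.2-less minus WT round spermatids) was -6.87 points with all positions, -5.64 within 20 bp, -7.66 above the median, -6.33 above the lower quartile and -2.97 with equal numbers. That of WT-only summits (WT minus H2A.L.2-less round spermatids) was 11.2 points, then 8.08 within 20 bp, 14.0 within 73 bp, 10.965 above the median, 10.3 above the lower quartile and 7.37 with equal numbers. The difference in regularity, 0.201, was 0.261 above the median and 0.148 with equal numbers. The difference in array share, -0.962 points, was -0.377 above the median, -0.485 above the lower quartile and -0.472 with gaps of 160 to 220 bp. It turned to 0.227 with equal numbers, within its autosomal SD of 0.332. The difference in neighbours, -0.413, was -0.231, -0.263 and -0.0934 above the median, above the lower quartile and with equal numbers, and -2.39 within 5000 bp. The share of called windows, 0.457%, was 6.48% above the median, 1.67% above the lower quartile, 4.60% in windows of 100 kb and 3.86% without centring. The median fuzziness difference at pairs was 0.106, and -0.106 without centring. Leaving out centring was chosen after seeing the data, as were the alternatives of the next 3 values. The window gradient between the poorest and the richest decile, 0.28, was 0.40 above the median and 0.32 with equal numbers, the array gap at 6 to 7 neighbours, 1.95 points, was 2.31 and 1.44, and the factor of 1.07 in recurrence was 1.05 and 1.07.

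Of the 72 alternative values, 24 moved by less than the limit set for them, 46 moved by more and 2 changed sign. The limit was the counting interval or the autosomal SD for most values, and a factor of 1.5 for the share of called windows. For the window gradient it was the SD over windows of the poorest decile, and for the recurrence factor a fixed value. The causes were not tested, except that the alternatives without centring differ from the main values only in the centring. No paired analysis was possible because each group has 1 library. Shares of matched summits rest on list length and on the calling floor, and the depth of each library is not known, so a position missing from a list may lie just under the floor.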
